A study of Mus musculus with 12 samples.

Results

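MaLR loci (mammalian apparent LTR retrotransposons) are copies of the ORR1, MT and MLT families, and their expression was followed here in naive CD4+ T cells with and without the helicase gene Ddx55. They were taken as all entries of the deposited repeat count table whose class and family read LTR/ERVL-MaLR, which gave 425030 of 3156417 repeat loci. Of these, 64346 (15.1%) had at least 1 count over the 12 libraries, and 32710 of those had only 1 to 3 counts. A total of 4260 passed the filter on low counts and could be tested, beside 39413 tested repeat loci of all kinds. MaLR loci went by 157 subfamily names, 116 of which could be tested as sums.

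The cells were mouse naive CD4+ T cells from spleen and pLN, either Ddx55 KO or WT, exposed to plate-bound antibodies against CD3 (5 ug/ml) and CD28 (2.5 ug/ml). The groups were KO at 0, 8 and 24 h and WT at 0, 8 and 24 h, with 2 libraries each, and the KO and WT cells had the same tissue source and stimulation by the labels. The sources used here do not give how the deletion was made, in which cells it acts, or the age and number of the animals. RNA without its ribosomal part was sequenced as stranded, paired reads of 150 bases. The labels do not say whether 2 libraries of a group came from 2 animals or from 1 culture, so p-values measure the spread between these libraries, which may be technical.

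MaLR elements are non-autonomous relatives of the ERVL retroviruses: a pair of long terminal repeats (LTRs) flanks an internal stretch that encodes no proteins of its own, and most copies have recombined to a lone LTR. An LTR carries its own promoter and polyadenylation signals, so a copy can start or end a transcript, and MT LTRs are known as alternative promoters of genes in the mouse oocyte. ORR1 and MT expanded in rodents, whereas MLT1 copies are older and shared among mammals. In most somatic cells such copies lie in DNA and histone marks that keep them silent, and many of their reads come from longer transcripts that run across them.

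Gene counts per library ranged from 16810375 to 19126498, and MaLR counts from 106759 to 199035. Levels below are counts scaled to the gene-table total of each library (CPM, with TMM factors), and intervals given for ratios of few counts cover counting error only. Ddx55 itself was at 14.4 to 19.5 CPM in the 6 KO libraries, against 45.3 to 68.7 CPM in the 6 WT libraries. All 10 T cell markers were found in the table, with summed levels of 5184.7 to 6051.9 CPM in KO and 4256.7 to 6170.5 CPM in WT libraries. The 8 basophil and mast cell markers summed to 114.4 to 785.0 CPM in KO, against 8.08 to 40.0 CPM in WT libraries. The 9 neutrophil and progenitor markers summed to 16.0 to 501.6 CPM in KO, against 0.433 to 55.6 CPM in WT libraries. The part of these other cells in the results was not tested, and in bulk RNA fewer cells of a type and less RNA per cell cannot be told apart.

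MaLR sequence can be an exon of a gene or its start, and the first sequences show both. The 3 windows below cover 250 bases before to 50 bases after a gene's start in RefSeq (GRCm38.p6), the same assembly as mm10, and were chosen after their values were seen, as starts that lie inside a tested locus. Capitals mark the bases inside the MaLR locus. Galnt6os (chr15:100695482-100695781, plus strand) starts in an MTD LTR that takes up 225 of its 300 bases. Kansl1l (chr1:66808745-66809044, minus strand), which encodes a relative of a subunit of a histone acetylation complex, has a window wholly inside an ORR1D1 LTR. A530021J07Rik (chr7:83148220-83148519, plus strand) starts in an ORR1F LTR, with 78 bases inside it.
Galnt6os: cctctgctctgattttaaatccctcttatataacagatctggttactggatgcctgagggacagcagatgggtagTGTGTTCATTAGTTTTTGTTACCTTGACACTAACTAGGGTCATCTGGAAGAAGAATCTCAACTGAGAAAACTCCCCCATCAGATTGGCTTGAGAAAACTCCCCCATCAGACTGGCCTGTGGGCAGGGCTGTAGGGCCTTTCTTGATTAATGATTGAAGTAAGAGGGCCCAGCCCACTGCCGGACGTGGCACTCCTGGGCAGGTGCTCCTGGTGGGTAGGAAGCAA
Kansl1l: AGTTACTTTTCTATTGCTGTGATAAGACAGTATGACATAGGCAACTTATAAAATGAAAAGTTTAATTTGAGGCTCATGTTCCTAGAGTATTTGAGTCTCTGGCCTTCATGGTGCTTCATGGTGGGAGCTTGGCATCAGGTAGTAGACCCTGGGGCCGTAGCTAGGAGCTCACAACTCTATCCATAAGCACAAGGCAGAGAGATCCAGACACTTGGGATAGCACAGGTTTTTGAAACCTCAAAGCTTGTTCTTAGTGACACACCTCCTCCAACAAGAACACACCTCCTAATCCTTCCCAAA
A530021J07Rik: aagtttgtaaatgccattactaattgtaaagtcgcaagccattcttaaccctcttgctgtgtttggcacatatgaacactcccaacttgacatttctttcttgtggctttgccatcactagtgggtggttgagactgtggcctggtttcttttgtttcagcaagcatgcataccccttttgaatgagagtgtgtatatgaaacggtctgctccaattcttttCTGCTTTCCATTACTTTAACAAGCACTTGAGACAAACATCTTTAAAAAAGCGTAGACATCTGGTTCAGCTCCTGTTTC

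The MTD locus at the start of Galnt6os was at 3.95 and 4.51 CPM in WT cells at 0 h, 0.275 and 0.234 CPM at 8 h, and 0.377 and 0.379 CPM at 24 h. It fell at 8 h against 0 h by 4.01 ± 0.47 on the log2 scale (SE, edgeR adjusted p = 1.81e-09), and the gene's own log2 change was -2.72. The ORR1D1 locus at the start of Kansl1l did the opposite, with 1.38 and 0.878 CPM in WT cells at 8 h, against 0.118 and 0.241 CPM at 0 h. Its log2 change of 2.61 ± 0.72 passed the test (edgeR adjusted p = 0.00461), whereas the gene as a whole had 20.3 and 19.2 CPM at 8 h, against 16.7 and 16.8 CPM at 0 h (log2 0.24, edgeR adjusted p = 0.331). KO cells had 0.733 and 0.827 CPM at this locus at 8 h, below both WT libraries but not past the test (edgeR adjusted p = 0.999). The difference between the locus and its gene was not tested for this pair. The ORR1F locus of A530021J07Rik had 0.0551 and 0.117 CPM in WT cells at 8 h, against 1.59 and 1.2 CPM at 0 h, a log2 change of -3.93 (edgeR adjusted p = 0.000461).

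Starts inside MaLR sequence were a small part of all counted loci. A RefSeq window overlapped 313 counted MaLR loci, and 181 held the start itself, of which 13 were tested. By the transcripts of GENCODE M21 the numbers were larger, with a start in 587 counted and 108 tested MaLR loci. Over the 185 windows that start in a MaLR locus, the letters ACTTCCT (a core ETS motif) were found on either strand in 53 (28.6%), against 3072 of 32851 windows of the same length (9.35%). The AP-1 letters TGANTCA were in 7.57% against 7.81%, the RUNX letters TGTGGTT in 7.57% against 5.27%, and the polyadenylation letters AATAAA in 22.2% against 19.6%. Copies of a subfamily share descent, so these windows are not independent, and a match is a description of letters only. None of the 4 motifs was found in the 3 windows printed.

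In coding genes of the T cell, loci annotated as MaLR internal sequence overlap exons over short stretches. Whether the shared bases descend from the elements was not tested. The pieces below are exon parts from GENCODE M21 transcripts, printed because they belong to 3 of the 10 most counted MaLR loci, with the same meaning of capitals. Ptprc (chr1:138073604-138073644, minus strand), which encodes the phosphatase CD45, shares 21 coding bases with an ORR1B1-int locus of 257 bases. Cd3g (chr9:44974359-44974390, minus strand), which encodes the gamma chain of the CD3 complex, shares 12 bases with an ORR1A3-int locus of 209 bases. Nedd8 (chr14:55663473-55663497, minus strand), which encodes a ubiquitin-like modifier, shares 5 bases with an ORR1D1-int locus of 152 bases.
Ptprc: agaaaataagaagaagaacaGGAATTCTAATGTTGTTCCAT
Cd3g: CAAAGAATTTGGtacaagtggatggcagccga
Nedd8: GTGGAgcgaatcaaggagcgtgtgg

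Noncoding RNAs held longer runs. Lockd, a noncoding RNA transcribed next to the cell cycle inhibitor gene Cdkn1b, has an exon (chr6:134951336-134951635, plus strand) in which 273 of the 300 bases printed are an MLT1J copy. Gm11346 (chr13:24597167-24597412, minus strand) has an exon with 206 bases of an MLT1A copy. Both loci are among those with the largest changes below.
Lockd: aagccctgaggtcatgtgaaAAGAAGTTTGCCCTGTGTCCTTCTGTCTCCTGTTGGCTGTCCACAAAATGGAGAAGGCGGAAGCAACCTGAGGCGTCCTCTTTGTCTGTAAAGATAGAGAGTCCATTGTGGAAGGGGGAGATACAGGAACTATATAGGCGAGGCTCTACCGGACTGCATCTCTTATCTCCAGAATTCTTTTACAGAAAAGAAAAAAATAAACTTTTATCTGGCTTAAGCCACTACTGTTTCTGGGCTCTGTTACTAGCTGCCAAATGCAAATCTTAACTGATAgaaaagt
Gm11346: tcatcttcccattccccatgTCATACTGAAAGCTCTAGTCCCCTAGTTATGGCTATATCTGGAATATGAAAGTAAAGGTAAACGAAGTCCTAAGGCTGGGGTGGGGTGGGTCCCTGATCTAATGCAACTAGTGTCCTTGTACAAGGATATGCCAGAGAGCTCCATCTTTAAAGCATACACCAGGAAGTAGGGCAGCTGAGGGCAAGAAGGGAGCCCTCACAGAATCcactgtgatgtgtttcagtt

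Most MaLR counts came from inside genes. Exonic loci, those that overlap an annotated exon, were 11283 of the 425030 but held 45.7% of MaLR counts. Intronic loci numbered 160533 and held 43.1%, and 253214 intergenic loci held 11.2%. ORR1 contributed 47.3% of counts, MT 38.1% and MLT1 14.6%. Counts were concentrated: 825 loci held 50% of them, and the 10 most counted loci held 7.43%. Of the 1264 tested exonic loci, 637 overlapped a 3′ UTR, 536 a noncoding exon, 125 coding sequence and 53 a 5′ UTR. Among 447 tested intergenic loci, 240 lay within 5000 bases downstream of a counted gene and 68 within that distance upstream. Their median distance to the nearest counted gene was 2251 bases, against 8640 bases for counted but untested intergenic loci. The sources used here do not say whether the counting used strand, and 142 tested exonic loci overlap genes on both strands, so their source cannot be told apart.

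Of the 10 most counted loci, the first was the ORR1B1-int locus of Ptprc, with 55.2 to 119.1 CPM over the 12 libraries and 18098 counts in all. Only 21 of its 257 bases are exon, as printed above. The next were an ORR1D2 LTR in the 3′ UTR of Itgal, the alpha chain of the integrin LFA-1 (57.4 to 76.0 CPM), and an MTEb LTR in the 3′ UTR of Tnfsf8, the gene of CD30 ligand (11 to 150.3 CPM). An MLT1K copy in the 3′ UTR of Rac2, a GTPase of blood cells, ranged from 16.8 to 127.5 CPM, the second widest span of these loci. The others were in or next to Cct6a (a chaperonin subunit), Cd3g, Gimap6, Mdm4 (an inhibitor of p53), Spn (CD43) and Nedd8.

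Summed over all loci, MaLR RNA was lower at 24 h than at 0 h in every library of both genotypes, and at 24 h it was higher in both KO libraries than in both WT libraries. In KO libraries the summed level was 8788.5 and 9969.6 CPM at 0 h, 7379.8 and 8577.1 CPM at 8 h, and 6749.3 and 7152.9 CPM at 24 h. In WT libraries it was 10367.6 and 10153.5 CPM at 0 h, 7210.8 and 7431.0 CPM at 8 h, and 6114.7 and 5773.0 CPM at 24 h. KO lay below WT at 0 h and above it at 24 h, and the libraries overlapped at 8 h.

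**Figure D1:**
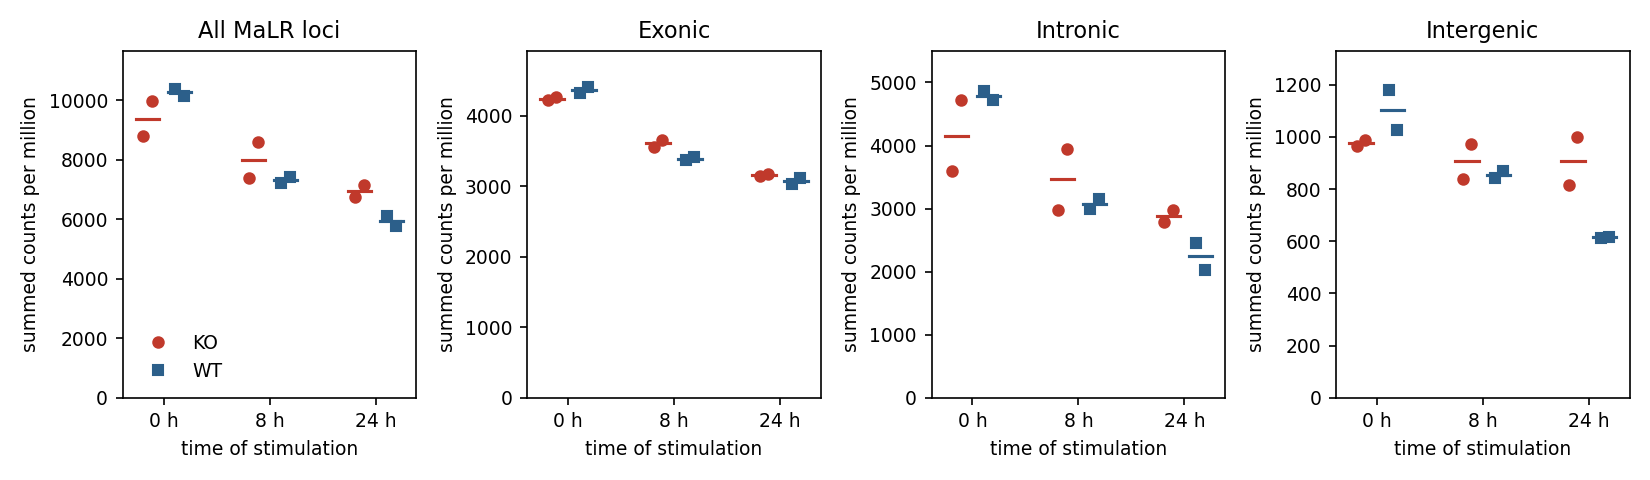
Summed MaLR level in CPM of the gene table (y axis) in each library by hours of stimulation (x axis), for all MaLR loci and for exonic, intronic and intergenic loci, with KO as red circles left of WT as blue squares and bars at the mean of 2 libraries. At 24 h intronic loci reached 2786.7 and 2981.7 CPM in KO and 2461.7 and 2031.5 CPM in WT libraries.

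The difference in summed level at 24 h lay largely outside exons, and that time was not tested alone. Exonic MaLR loci summed to 3145.6 and 3171.6 CPM in KO, against 3039.5 and 3124.5 CPM in WT cells at 24 h. Intronic loci summed to 2786.7 and 2981.7 CPM in KO, against 2461.7 and 2031.5 CPM in WT. Intergenic loci summed to 817.0 and 999.6 CPM in KO, against 613.5 and 617.0 CPM in WT. On the log2 scale the exonic difference was 0.036, the intronic one 0.366 and the intergenic one 0.555. The median over single tested loci was 0.09 for exonic, 0.32 for intronic and 0.03 for intergenic loci. The intergenic sum thus did not reflect the typical tested locus. The spread between replicates in introns differed by group. Intronic loci had 3593.0 and 4720.0 CPM in the KO libraries at 0 h, against 4861.0 and 4718.2 CPM in WT, and 2983.7 and 3943.6 CPM in the KO libraries at 8 h, against 2999.4 and 3145.5 CPM in WT. The KO libraries were thus farther apart than the WT ones at 0 h and 8 h, whereas at 24 h the SD was 137.9 CPM in KO and 304.2 CPM in WT.

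Averaged over the 3 times, no summed MaLR level passed a test between KO and WT. Differences of opposite sign cancel in this average, so it cannot show a KO effect that turns with time. For all MaLR loci the log2 difference was -0.132 at 0 h, 0.12 at 8 h and 0.226 at 24 h. Genotype labels were exchanged within times in an exact two-sided permutation test over all such arrangements, whose smallest possible p is 0.00926, and 9 single values were tested. All MaLR loci were 1.05-fold as high in KO as in WT (log2 0.07, exact p = 0.37, adjusted p = 0.546). MT loci had a log2 difference of 0.12 (exact p = 0.148, adjusted p = 0.444), ORR1 loci 0.04 and MLT1 loci 0.04. The MaLR share of all LINE, SINE, LTR and DNA repeat counts was 9.77 and 9.53% in KO, against 9.61 and 9.4% in WT cells at 24 h. At 8 h the share was 10 and 9.88% in KO, against 9.42 and 9.05% in WT. Over the times it was 1.04-fold higher in KO (exact p = 0.0185, adjusted p = 0.0833), and the ratio of MaLR to ERVL counts was 1.01-fold higher with the same p-values, so both missed the threshold after adjustment. MT loci made up 38.31 and 38.62% of MaLR counts in KO, against 36.44 and 36.14% in WT cells at 24 h, with no overlap and no test of that time alone.

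Activation of WT cells lowered many more MaLR loci than it raised. At 8 h against 0 h, 1538 of 4260 tested loci passed the test (36.1%), 398 higher and 1140 lower, against 31.6% of all tested repeat loci, 9.51% higher and 22.1% lower (edgeR's quasi-likelihood test, Benjamini-Hochberg adjusted p under 0.05). At 24 h against 0 h, 1889 passed (44.3%), 287 higher and 1602 lower, against 39.6% of all repeat loci, 7.36% higher and 32.3% lower. The median log2 change was -0.65 at 8 h and -1.11 at 24 h, against -0.47 and -0.92 over all tested repeat loci. MaLR loci thus moved the way repeat loci moved in general. Intergenic and intronic loci had lower medians at 24 h, -1.61 and -1.28, than exonic ones, -0.62. DESeq2 called 978 at 8 h. Dropping the first or the second WT library of 8 h left 926 or 987 calls at that time, and dropping the first of 0 h left 1021. Dropping the second WT library of 24 h left 1229 calls at 24 h.

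Of the named loci that rose with activation, 3 lie in Il2ra, which encodes the alpha chain of the interleukin-2 receptor. The ORR1E LTR in its 3′ UTR (chr2:11692335-11692671) had 30 and 28.0 CPM in WT cells at 8 h, against 0.177 and 0.0601 CPM at 0 h. Every library at 8 h was far above every library at 0 h (log2 change 7.85 ± 0.32, edgeR adjusted p = 4.05e-26), and the gene changed by 8.0. Loci were named for activation only where the WT groups did not overlap. The MTD LTR beside it (chr2:11692868-11693247) had 11.5 and 12.7 CPM at 8 h, against 0.118 and 0.0601 CPM at 0 h, a ratio of 135 with a 95% counting interval of 46.0 to 659. An MTE2a LTR in an Il2ra intron (chr2:11686524-11686918) had 5.4 and 6.03 CPM at 8 h against a single count at 0 h, a ratio of 192 (34.0 to 7600). These 3 copies share 1 transcript and are not independent.

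Other named loci had no count or a single count in WT cells at 0 h. An ORR1A3 LTR in an intron of Hivep3, a zinc finger transcription factor gene (chr4:120118145-120118464), had 3.19 and 3.75 CPM in WT cells at 8 h and no count at 0 h, so it was at least 38.7-fold higher, with the floor set at 3 counts over the group. At 24 h it was at 0.861 and 0.973 CPM, at least 10.3-fold above 0 h. An MTEa LTR with internal sequence in a noncoding exon of Adarb1, the gene of an RNA-editing adenosine deaminase (chr10:77315187-77316417), had 2.2 and 1.17 CPM at 8 h and 1.83 and 1.03 CPM at 24 h in WT cells. With no count at 0 h, these were at least 19.1-fold and at least 16.0-fold higher. An ORR1A3 copy in the 3′ UTR of Dnph1, which encodes a nucleotide hydrolase (chr17:46499363-46499839), had 11.2 and 10.7 CPM in WT cells at 24 h against a single count at 0 h, a ratio of 368 (65.6 to 14600). Dnph1 as a whole changed by 7.02 on the log2 scale. This copy overlaps 2 genes, as do the copies in Usp18, Ncf1 and Gm11346 and the MLT1I copy in A530021J07Rik described below, so the source of their reads cannot be told apart.

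**Figure D2:**
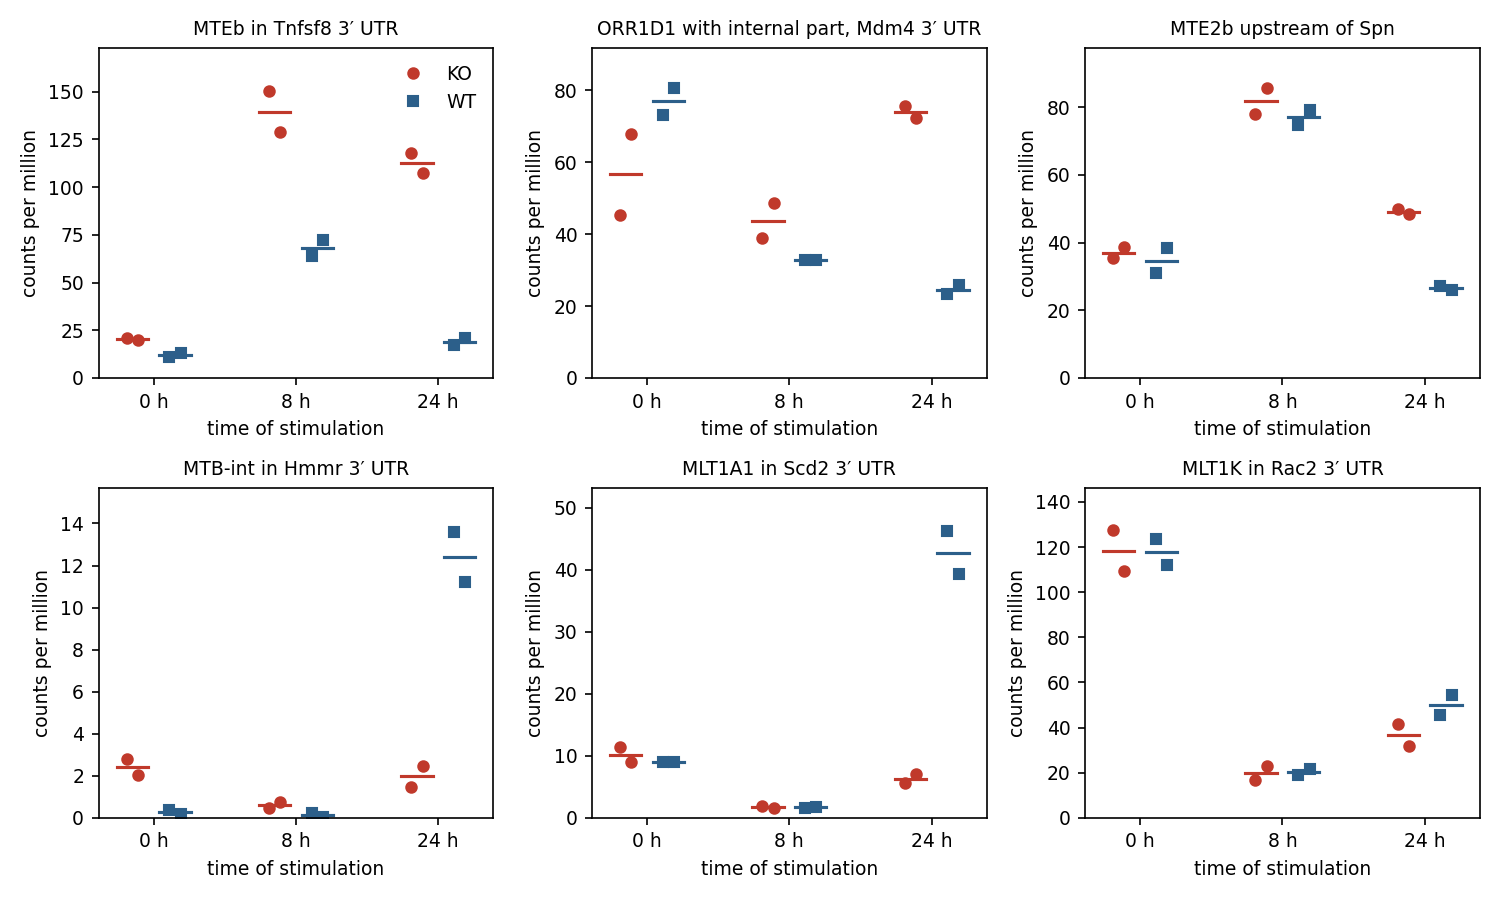
Level of the MaLR loci in Tnfsf8, Mdm4, Hmmr, Scd2 and Rac2 and upstream of Spn in CPM (y axes) in each library by hours of stimulation (x axes), with KO as red circles left of WT as blue squares and bars at the mean of 2 libraries. The locus in Tnfsf8 stands at 117.9 and 107.2 CPM in KO and at 17.3 and 20.9 CPM in WT libraries at 24 h.

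The named loci that fell with activation included copies at Pglyrp2, P2rx7, Gm11346 and Ifi209. An ORR1F LTR that holds a start of Pglyrp2, a peptidoglycan recognition protein gene (chr17:32423953-32424170), had 0.275 and 0.351 CPM in WT cells at 8 h, against 12.2 and 15.6 CPM at 0 h (log2 -5.44 ± 0.34, edgeR adjusted p = 2.07e-18). The gene fell by 4.91. An MLT1H1 copy in the 3′ UTR of P2rx7, the gene of an ATP-gated channel (chr5:122681700-122682152), had no count in WT cells at 8 h, against 2.3 and 3.31 CPM at 0 h, at least 32.9-fold lower at 8 h. It was back at 0.915 and 1.08 CPM at 24 h, and it also holds an annotated start of P2rx7. The MLT1A copy in Gm11346, printed above, had 0.161 and 0.162 CPM in WT cells at 24 h, against 7.55 and 10.2 CPM at 0 h, and fell by 5.71 ± 0.42 on the log2 scale (edgeR adjusted p = 7.73e-16). An MTD LTR that reaches the 3′ UTR of Ifi209, one of a cluster of similar interferon-inducible genes (chr1:173641312-173641727), had 0.323 and 0.324 CPM at 24 h, against 14.6 and 15.6 CPM at 0 h (log2 -5.51, edgeR adjusted p = 1.13e-18). Reads of that gene family can be split among near-identical members.

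Intronic and downstream copies among the named falling loci lay at Ripor2, Aim2, Gm32633 and Mgst2. An ORR1E LTR in an intron of Ripor2, an inhibitor of the GTPase RhoA (chr13:24686271-24686603), had 1 count in WT cells at 24 h, against 3.42 and 2.23 CPM at 0 h, a ratio of 0.00953 (0.000239 to 0.0544). Ripor2 itself fell by 3.24 on the log2 scale, and the locus relative to its gene passed the test (log2 -3.41 ± 1.0, edgeR adjusted p = 0.0118). An ORR1A2 LTR 1056 bases downstream of Aim2, a sensor of cytosolic DNA (chr1:173467096-173467424), had 0.0538 and 0.0541 CPM at 24 h, against 3.25 and 3.97 CPM at 0 h, a ratio of 0.015 (0.00179 to 0.0553). Aim2 changed by -1.13. An MTEa LTR 3269 bases downstream of Gm32633 (chr7:64024228-64024469) had 2 counts at 8 h and 2 at 24 h, with ratios to 0 h of 0.0169 (0.00202 to 0.0623) and 0.016 (0.00192 to 0.0593). An MTEa LTR in an Mgst2 intron, a glutathione transferase gene, had 0.33 and 0.0585 CPM at 8 h, against 5.07 and 4.99 CPM at 0 h (log2 -4.62, edgeR adjusted p = 1.43e-10), and an MTE2b LTR in an exon of Gm36738 had 0.275 and 0.117 CPM at 8 h, against 4.25 and 4.51 CPM at 0 h (log2 -4.42, edgeR adjusted p = 1.3e-09).

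At rest, few MaLR loci differed between KO and WT cells. At 0 h, 13 of 4260 passed the test (0.305%), 10 higher and 3 lower in KO, against 0.261% of all tested repeat loci, 0.221% higher and 0.0406% lower, so the share was close to the background. With the second KO library of 0 h left out the count was 21, and with the first or second WT library left out it was 6 or 8. DESeq2 called 6. Of the loci named at this time, the largest difference was at an MTB-int copy in the 3′ UTR of Hmmr, the gene of a hyaluronan receptor that also acts at the mitotic spindle (chr11:40701484-40702671). It had 2.81 and 2.05 CPM in KO, against 0.354 and 0.18 CPM in WT cells at 0 h (log2 3.14 ± 0.45, edgeR adjusted p = 8.41e-06), and Hmmr itself was higher by 2.03. Of the 7 loci the naming rule gave at 0 h, this one alone kept its call under every alternative run.

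The other loci named for a higher level in resting KO cells lie in Usp18, Ifit1, Plek and Ncf1. The Tnfsf8 locus, named as 1 of the 10 most counted, was also higher in KO at 0 h (log2 0.77 ± 0.15, edgeR adjusted p = 0.00418). Its gene was higher by 0.8 (edgeR adjusted p = 0.000489), so this difference was present before stimulation. An ORR1F LTR in the 3′ UTR of Usp18, an interferon-induced protease gene (chr6:121270644-121270951), had 18.5 and 24.2 CPM in KO, against 7.32 and 11.8 CPM in WT cells at 0 h (log2 1.16, edgeR adjusted p = 0.00547). An MTD LTR in the 3′ UTR of Ifit1, an interferon-induced RNA-binding protein gene (chr19:34649682-34650059), had 17.2 and 25 CPM in KO, against 7.49 and 11.5 CPM in WT (log2 1.15, edgeR adjusted p = 0.00715). Both were at 0.916 to 1.24 CPM in the KO and WT libraries at 24 h. An ORR1E LTR in the 3′ UTR of Plek, which encodes pleckstrin of platelets and leukocytes (chr11:16972066-16972302), had 2.42 and 1.1 CPM in KO, against 0.354 and 0.361 CPM in WT (log2 2.27, edgeR adjusted p = 0.00689). An MTB_Mm LTR in the 3′ UTR of Ncf1, a subunit gene of the phagocyte NADPH oxidase (chr5:134220208-134220559), had 1.21 and 1.35 CPM in KO, against 0.236 and 0.301 CPM in WT (log2 2.23, edgeR adjusted p = 0.0312). Beside these, the 7 myeloid markers, none at 0, summed to 103.4 and 43.6 CPM in KO, against 37.0 and 25.4 CPM in WT cells at 0 h, and their part was not tested.

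A pair of named loci was lower in resting KO cells. An MTC LTR in an intron of 4930417O13Rik (chr6:125267730-125268079) had 0.165 and 0.1 CPM in KO, against 0.944 and 0.541 CPM in WT at 0 h (log2 -2.44, edgeR adjusted p = 0.0216). At 8 h it was at 8.74 and 11.6 CPM in KO and 8.26 and 8.72 CPM in WT cells, above every library of its genotype at 0 h. An intergenic MTEa LTR 28973 bases from Ctcfl (chr2:173064328-173064636) had 4.4 and 4.11 CPM in KO, against 7.73 and 9.74 CPM in WT (log2 -1.04, edgeR adjusted p = 0.0428). It had 2.34 and 3.66 CPM in KO, against 7.27 and 9.73 CPM in WT at 24 h. The Ctcfl gene was not above 0.162 CPM in any library.

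At 8 h, 6 of 4260 MaLR loci passed the test (0.141%), 5 higher and 1 lower in KO, against 0.236% of all repeat loci, 0.203% higher and 0.033% lower. The Tnfsf8 locus had 150.3 and 128.6 CPM in KO, against 64.1 and 72.5 CPM in WT cells (log2 1.03 ± 0.15, edgeR adjusted p = 1.9e-05). An ORR1F LTR in an intron of Il21r, the interleukin-21 receptor gene (chr7:125629319-125629613), had 6.6 and 7.94 CPM in KO, against 3.75 and 2.93 CPM in WT (log2 1.12, edgeR adjusted p = 0.0312). The Ncf1 locus had 1.52 and 1.27 CPM in KO, against 0.275 and 0.351 CPM in WT (log2 2.13, edgeR adjusted p = 0.0348). Of these 3, the Tnfsf8 locus alone kept its call under every alternative. Leaving out either KO library of that time gave 3 calls, and leaving out the first or second WT library gave 1 or 2. DESeq2 called 3, and 15 passed when KO and WT at 8 h were fitted alone.

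At 24 h, 175 of 4260 MaLR loci passed the test (4.11%), against 4.03% of all repeat loci, so they were called about as often as repeat loci in general. Of these, 103 were higher and 72 lower in KO, against 2.49% higher and 1.54% lower over all repeat loci. By family, ORR1 had 39 higher and 41 lower of 1913 (4.18%), MT 51 higher and 21 lower of 1774 (4.06%), and MLT1 13 higher and 10 lower of 571 (4.03%). By place, exonic loci had 48 higher and 51 lower of 1264, and intronic loci had 47 higher and 14 lower of 2549, shares called of 7.83% and 2.39%, against 6.56% and 2.49% of all repeat loci in the same places. Intergenic loci had 8 higher and 7 lower of 447 (3.36%), against 3.9% of all intergenic repeat loci. The median log2 difference was 0.22, against 0.24 over all tested repeat loci. DESeq2 called 92. Dropping the first or second KO library of 24 h gave 76 or 81 calls, and dropping the first or second WT library gave 83 or 90.

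Among the loci higher in KO cells at 24 h, the most counted of the named ones was the Tnfsf8 locus, an MTEb LTR of 383 bases that lies wholly in the 3′ UTR (chr4:63832302-63832684). It had 117.9 and 107.2 CPM in KO, against 17.3 and 20.9 CPM in WT cells, and the KO libraries were several times above the WT ones (log2 2.56 ± 0.16, edgeR adjusted p = 2.21e-17). The gene had 709.0 and 640.0 CPM in KO, against 105.3 and 115.2 CPM in WT, a log2 difference of 2.61. An ORR1D1 copy of 970 bases in the 3′ UTR of Mdm4 (chr1:132989472-132990441) had 75.6 and 72.4 CPM in KO, against 23.3 and 25.8 CPM in WT cells (log2 1.59 ± 0.16, edgeR adjusted p = 4.7e-10), and the gene differed by 1.49. An MTE2b LTR 6387 bases upstream of Spn (chr7:127144210-127144573) had 49.9 and 48.3 CPM in KO, against 27.3 and 26.1 CPM in WT (log2 0.88 ± 0.15, edgeR adjusted p = 5.57e-05), and Spn differed by 0.49. In both, all KO libraries were above all WT libraries at 24 h.

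Less counted loci higher in KO cells at 24 h included copies in Idi2 and Dglucy. An ORR1F LTR in the 3′ UTR of Idi2, an isopentenyl diphosphate isomerase gene (chr13:8960327-8960521), had 6.97 and 3.18 CPM in KO, against 0.431 and 0.487 CPM in WT (log2 3.45 ± 0.51, edgeR adjusted p = 4.75e-06). An ORR1B1-int copy in the 3′ UTR of Dglucy, a D-glutamate cyclase gene (chr12:100871609-100871756), had 6.04 and 5.01 CPM in KO, against 0.807 and 1.08 CPM in WT (log2 2.54 ± 0.36, edgeR adjusted p = 1.14e-06). The groups did not overlap at either, which the naming rule required. An ORR1A2 copy 860 bases downstream of H2-Q4, one of the many similar class I histocompatibility genes (chr17:35386150-35388361), had 0.816 and 0.754 CPM in KO against 2 counts in WT, a ratio of 14.6 with a 95% counting interval of 3.68 to 126. An MTD LTR in the 3′ UTR of Rab44, a large Rab GTPase gene (chr17:29148495-29148851), had 1.25 and 5.17 CPM in KO, against 0.108 and 0.108 CPM in WT (log2 4.81, edgeR adjusted p = 0.0238). The basophil and mast cell markers, 8 of 8 in the table and none at 0, summed to 168.2 and 607.7 CPM in the same KO libraries, against 9.8 and 8.6 CPM in WT, highest where the Rab44 locus was highest. Their part in that result was not tested.

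The loci lower in KO cells at 24 h included copies in Scd2, Acat2 and Hmmr. An MLT1A1 copy in the 3′ UTR of Scd2, a stearoyl-CoA desaturase gene (chr19:44306283-44306423), had 5.66 and 7.0 CPM in KO, against 46.2 and 39.4 CPM in WT (log2 -2.75 ± 0.21, edgeR adjusted p = 3.05e-14). An MTE2a LTR in the 3′ UTR of Acat2, the cytosolic acetoacetyl-CoA thiolase gene (chr17:12942988-12943195), had 1.31 and 0.646 CPM in KO, against 9.15 and 9.95 CPM in WT (log2 -3.28 ± 0.32, edgeR adjusted p = 9.99e-11). The Hmmr copy had 1.47 and 2.48 CPM in KO, against 13.6 and 11.2 CPM in WT (log2 -2.64 ± 0.31, edgeR adjusted p = 2.08e-08). KO and WT did not overlap at these 3, which the naming rule required, and in WT cells each had its highest level at 24 h. An MLT1H copy in the 3′ UTR of Igsf23 (chr7:19937578-19937913) had 0.109 and 0.162 CPM in KO, against 0.538 and 1.24 CPM in WT (log2 -2.66, edgeR adjusted p = 0.0088). An MLT1I copy in an exon of A530021J07Rik (chr7:83178512-83178906) had no count in KO, against 0.108 and 0.324 CPM in WT, at least 2.66-fold lower in KO. Of the 10 loci named at 24 h, 6 kept their call under every alternative, and the copies in Igsf23, A530021J07Rik and Rab44 and the one beside H2-Q4 did not.

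**Figure D3:**
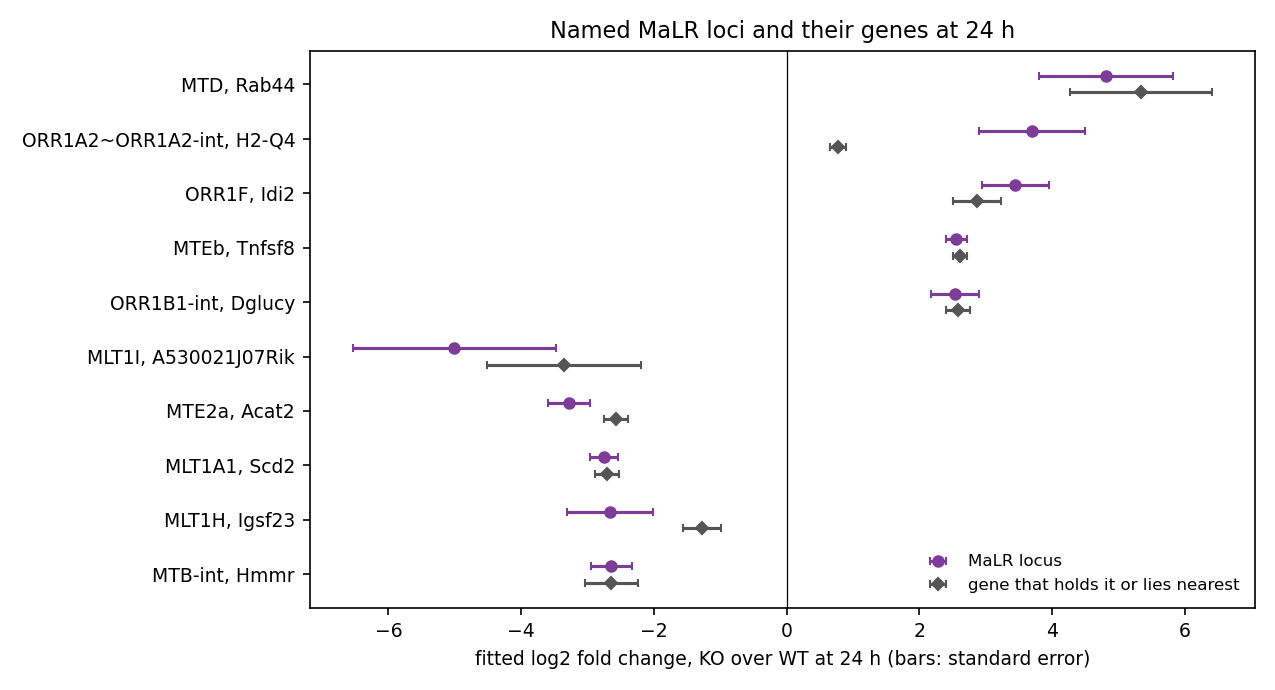
Log2 difference between KO and WT cells at 24 h (x axis; positive is higher in KO) for named MaLR loci and for the gene that holds or lies nearest to each, with bars of 1 standard error of the edgeR fit. The Tnfsf8 locus is at 2.56 and its gene at 2.61, and the Acat2 locus is at -3.28 and its gene at -2.57.

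Most called MaLR loci in genes moved with the gene that holds them. At 24 h, 99 exonic loci with a tested host gene differed between KO and WT, and for 93 the gene was called in the same direction, where 38.5% of all tested genes were called in either direction. Of 59 such intronic loci, 53 had a gene called in the same direction. Across 1256 exonic loci in 1055 genes the log2 differences of locus and gene had a Pearson r of 0.73, and across 2528 intronic loci in 1749 genes 0.47. These correlations describe loci that share libraries and, for exonic loci, reads with their genes, and loci are not replicates. The median difference between locus and gene was 0.01 in exons and 0.32 in introns. For WT cells at 24 h against 0 h, 491 of 561 called exonic loci and 798 of 1075 called intronic loci had a gene called in the same direction, where 66.5% of all genes were called, with r of 0.85 and 0.69. The median differences between locus and gene were then -0.22 and -1.0.

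**Figure D4:**
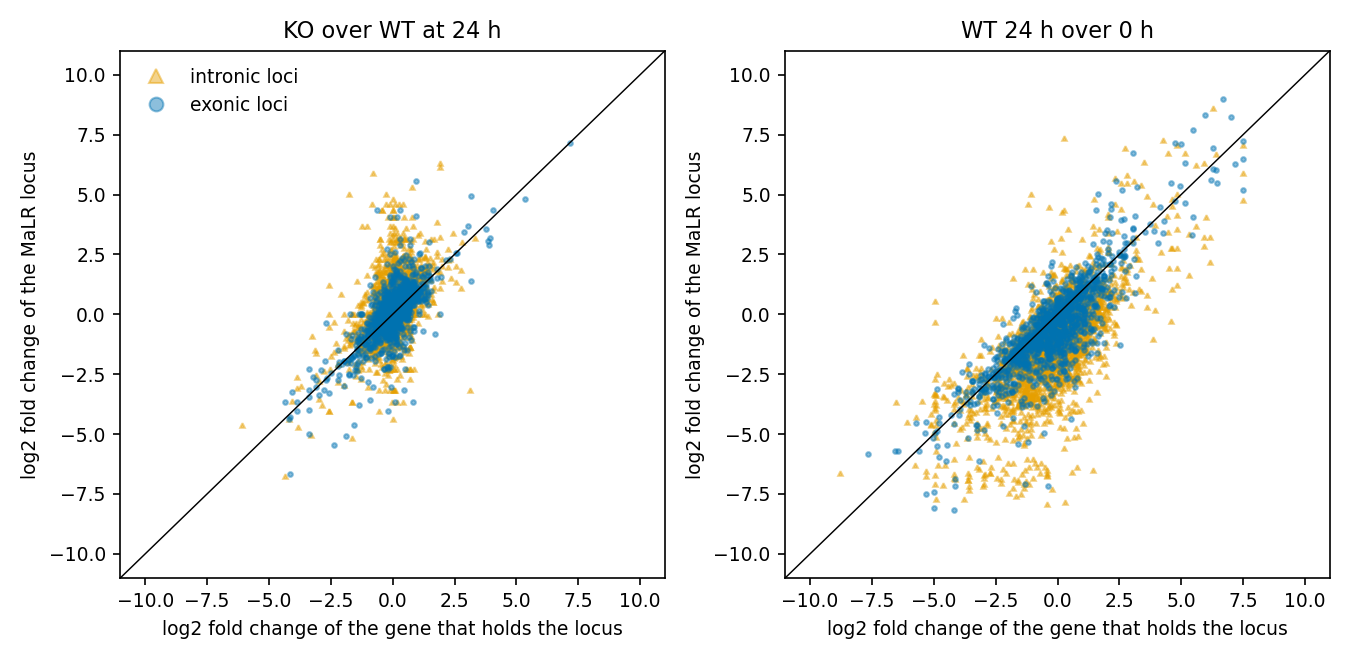
Log2 change of each tested MaLR locus (y axis) against that of the gene holding it (x axis), in a panel for KO over WT at 24 h and a panel for WT at 24 h over 0 h, with intronic loci as orange triangles, exonic loci as blue circles and the line of equal change drawn. Exonic loci lie along the line (r 0.73 and 0.85), whereas intronic loci have r of 0.47 and 0.69 and lie below it after activation, with a median difference of -1.0.

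Counted relative to the host gene, most differences between KO and WT loci did not pass the test. With the gene's counts as offset, 3621 loci in genes with a mean of at least 50 counts could be tested. Relative to the gene, 6 differed between KO and WT at 24 h (0.166%), all higher in KO, against 0.309% of all repeat loci in genes. None did at 0 h or 8 h by edgeR, where 0.0438% and 0.0321% of all repeat loci did, and 162 and 128 had an unadjusted p under 0.05; DESeq2 was not run on this quantity. In activation the relative test called 262 loci at 8 h (38 higher and 224 lower), against 6.61% of all repeat loci, and 706 at 24 h (32 higher and 674 lower), against 17.8% of all repeat loci. The 262 and 706 are 7.24% and 19.5% of the loci. Of 547 intronic loci called at 24 h, 522 were lower relative to their gene. Over all repeat loci in genes 5725 of 6083 called were lower, so the lean was shared by repeat loci in general.

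Several of the 6 loci higher relative to their gene in KO cells at 24 h sat in genes that themselves did not differ. An MTC-int copy in an intron of Pik3cd, the gene of the delta catalytic subunit of phosphoinositide 3-kinase (chr4:149700691-149701370), had 5.33 and 4.79 CPM in KO, against 1.78 and 2.0 CPM in WT. The gene had 525.1 and 504.2 CPM in KO, against 555.8 and 552.6 CPM in WT, and the relative log2 difference was 1.53 ± 0.33 (edgeR adjusted p = 0.0126). An MTC LTR in an intron of St3gal4, a sialyltransferase gene (chr9:35049848-35050201), had 2.83 and 1.72 CPM in KO, against 0.538 and 0.487 CPM in WT (relative log2 2.01 ± 0.46, edgeR adjusted p = 0.0211). In both the KO libraries were above the WT ones, while the gene's difference did not pass the test (edgeR adjusted p = 0.511 and 0.513).

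The other relative differences were of several kinds. An ORR1D1 LTR in an intron of the kinetochore gene Zwint (chr10:72659075-72659452) had 2.07 and 2.8 CPM in KO, against 1.45 and 0.865 CPM in WT. Its own difference did not pass the test (log2 1.07, edgeR adjusted p = 0.0968). Zwint was lower in KO by 0.67 on the log2 scale, and the relative log2 difference was 1.73 ± 0.35 (edgeR adjusted p = 0.00545). An MTA_Mm LTR in an intron of Cinp, whose product binds a cyclin-dependent kinase, had a relative difference of 1.65 (edgeR adjusted p = 0.0284). Its own difference did not pass the test (log2 0.46, edgeR adjusted p = 0.637), while Cinp was lower in KO (log2 -1.19, edgeR adjusted p = 3.73e-07). An MTE2a LTR in a noncoding exon of Fam32a had 1.25 and 1.13 CPM in KO, against 0.108 and 0.27 CPM in WT (relative log2 2.54, edgeR adjusted p = 0.0292). An MTE2b LTR in an intron of the interferon-inducible GTPase gene Ifi47 had 0.327 and 0.485 CPM in KO and no count in WT (edgeR adjusted p = 0.0254), so its fitted fold is not a bound. Ifi47 itself was lower in KO (log2 -0.78, edgeR adjusted p = 0.00376).

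The KO effect itself changed between 0 h and 24 h at 59 of 4260 MaLR loci (1.38%), 29 upward and 30 downward, against 1.45% of all repeat loci, 0.847% upward and 0.604% downward. Counted relative to the host gene, none of 3621 loci changed by edgeR, where 0.0526% of all repeat loci in genes did, and 349 had an unadjusted p under 0.05. This comparison shares its libraries with those above. The Hmmr copy had the largest change, with a KO difference of 3.14 at 0 h and -2.64 at 24 h (change -5.79 ± 0.54, edgeR adjusted p = 6.7e-11). The Dnph1 copy had 2.56 and 2.64 CPM in KO, against 11.2 and 10.7 CPM in WT at 24 h, and 0.33 and 0.601 CPM in KO against a single count in WT at 0 h (edgeR adjusted p = 0.000101). The MLT1J copy in Lockd, printed above, had 0.599 and 0.808 CPM in KO, against 3.44 and 4.81 CPM in WT at 24 h, and 2.92 and 2.91 CPM in KO, against 1.12 and 1.8 CPM in WT at 0 h. Its change of -3.53 ± 0.57 passed the test (edgeR adjusted p = 5.89e-05), and KO and WT did not overlap at either time. At 0 h alone, the KO difference at this copy did not pass (edgeR adjusted p = 0.616). Nor did it at the Dnph1 copy or at the Fancm copy given next (edgeR adjusted p = 0.0791 and 0.856). An MTC LTR in the 3′ UTR of Fancm, a DNA repair helicase gene (chr12:65130731-65131081), had 0.653 and 0.431 CPM in KO, against 3.28 and 2.87 CPM in WT at 24 h, while at 0 h KO had 1.05 and 1.05 CPM, against 0.531 and 0.541 CPM in WT (change -3.45, edgeR adjusted p = 0.00131).

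The loci named for an upward change, by the largest fitted fold, lay beside H2-Q4 and in 4930417O13Rik, Ifnar1, Rap1b and Mdm4. Upward changes also passed at loci named for other reasons. These were the copy in the Mdm4 3′ UTR (change 2.03, edgeR adjusted p = 1.3e-08) and the Tnfsf8 copy (1.79, edgeR adjusted p = 8.96e-08). The Il21r copy (1.78, edgeR adjusted p = 0.00388) and the copy upstream of Spn (0.78, edgeR adjusted p = 0.0426) passed too. The MTC LTR in 4930417O13Rik had 2.23 and 2.32 CPM in KO, against 1.56 and 0.973 CPM in WT at 24 h, and was lower in KO at 0 h as given above (change 3.28 ± 0.64, edgeR adjusted p = 0.00129). An MTC copy at Ifnar1, a chain of the type I interferon receptor (chr16:91498324-91498771), had 0.925 and 1.19 CPM in KO, against 0.269 and 0.162 CPM in WT at 24 h, and 1.49 and 2.15 CPM in KO, against 3.01 and 3.55 CPM in WT at 0 h (change 3.1 ± 0.69, edgeR adjusted p = 0.00671). An MLT1A0 copy in an intron of Rap1b, a Ras-like GTPase gene (chr10:117820973-117821330), had 1.36 and 1.08 CPM in KO, against 0.108 and 0.379 CPM in WT at 24 h (change 2.83, edgeR adjusted p = 0.013). A second Mdm4 copy, an intronic ORR1B1-int piece (chr1:133007369-133007469), had 1.41 and 2.42 CPM in KO, against 0.807 and 0.595 CPM in WT at 24 h, and 0.935 and 1.55 CPM in KO, against 2.42 and 2.71 CPM in WT at 0 h (change 2.48, edgeR adjusted p = 0.0175). Tested alone, the KO difference at 0 h did not pass at the Ifnar1, Rap1b and Mdm4 copies (edgeR adjusted p = 0.794, 0.933 and 0.621). At 24 h the KO difference did not pass at the 4930417O13Rik copy (edgeR adjusted p = 0.145). Of the 10 loci named here, 4 kept their call under every alternative, and the number called was 104 with the second KO library of 0 h left out and 37 with the second KO library of 24 h left out.

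Summed by subfamily, MaLR RNA fell broadly with activation and a few subfamilies were higher in KO cells at 24 h. In WT cells 75 of 116 subfamilies passed the test at 8 h (3 higher and 72 lower), against 43.1% of all tested repeat subfamilies, 5.73% higher and 37.3% lower. At 24 h 93 passed (4 higher and 89 lower), against 62.3%, 5.16% higher and 57.2% lower. Between KO and WT, no MaLR subfamily passed at 0 h by edgeR or DESeq2 (2 with an unadjusted p under 0.05), where 0.573% of all subfamilies did. At 8 h 1 passed, MTEb (log2 0.51, edgeR adjusted p = 0.0482), higher in KO, where 0.41% of all subfamilies did, 0.246% being higher. Without the Tnfsf8 copy its difference was 0.1 (edgeR adjusted p = 0.969), and no MaLR subfamily passed at 8 h under RLE size factors, under library totals alone, or with any library left out other than a KO library of 0 h. At 24 h 16 passed (13.8%), 14 higher and 2 lower, against 15.3% of all subfamilies, 13% higher and 2.29% lower. The MT group had 10 higher and 1 lower of 29, ORR1 4 higher of 42, and MLT1 1 lower of 44. The KO effect changed between 0 h and 24 h for 13 subfamilies, 12 upward and 1 downward, against 8.93% of all, 7.62% upward and 1.31% downward. That number ran from 3 to 44 when 1 library was left out, with 44 when the second KO library of 0 h was dropped, and was 3 with library totals alone. The numbers at 24 h were unstable. They were 4 when the second KO or the second WT library of that time was dropped, 5 when the first WT library was, 28 when the second KO library of 8 h was, and 8 with library totals alone as the scale.

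A single locus carried much of several subfamilies. In 101 of the 116 subfamilies 1 locus held over 10% of the counts, in 52 over 25% and in 19 over 50%. The copy in Mdm4 held 67.8% of the counts of ORR1D1 elements with internal sequence, whose KO difference at 24 h was 1.19 with it and 0.12 without it (edgeR adjusted p = 0.000271 and 0.731). The copy in Tnfsf8 held 31.1% of MTEb counts, and the difference was 1.02 with it and 0.3 without it (edgeR adjusted p = 1.64e-05 and 0.142). MTB-int stood at -1.6 with the Hmmr copy and 0.01 without it, and MLT1A1 at -0.51 with the Scd2 copy and 0.28 without it. The MTB_Mm elements with internal sequence stood at 0.85, and at 0.8 without the copy in Zkscan3, a zinc finger gene (edgeR adjusted p = 0.0387). MTEa with internal sequence stood at 0.87, and at 0.53 without the copy in Ptpn22, a phosphatase gene (edgeR adjusted p = 0.113). MTE2b with internal sequence stood at 0.74, and at 0.53 without the copy in 2610008E11Rik (edgeR adjusted p = 0.365). Of the 7 subfamilies named at 24 h, none kept its call under every alternative. Leaving out the most counted locus of every subfamily gave 15 subfamilies called at 24 h, and in activation none that rose, against 3 at 8 h and 4 at 24 h with all loci.

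**Figure D5:**
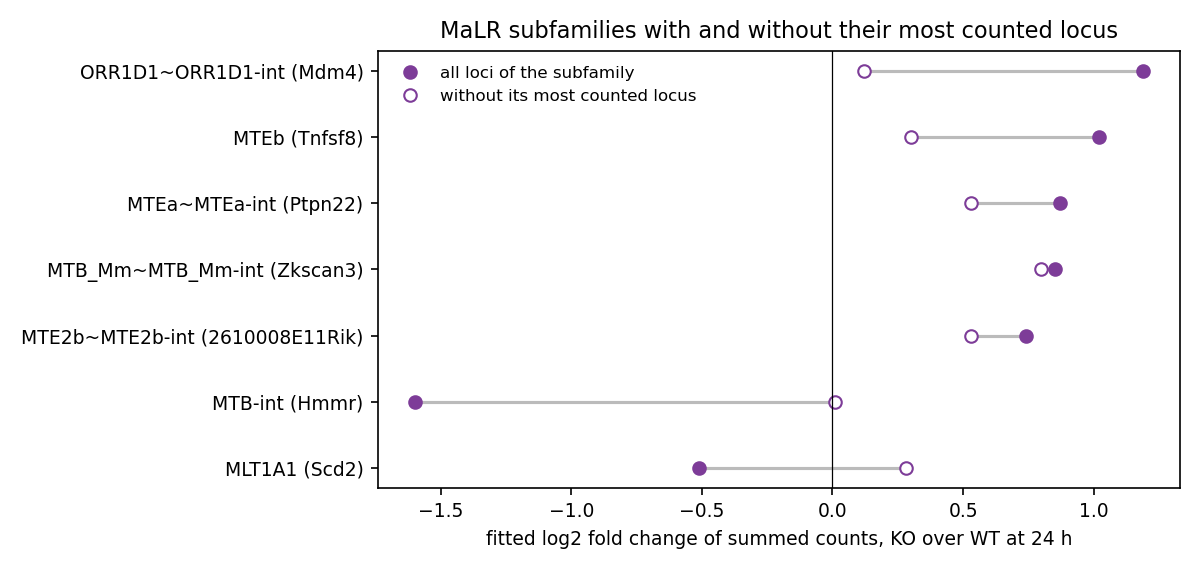
Log2 difference between KO and WT cells at 24 h (x axis; positive is higher in KO) for the named MaLR subfamilies, summed over all loci and without the most counted locus. ORR1D1 with internal sequence moves to 0.12 without the Mdm4 copy and MTB-int to 0.01 without the Hmmr copy.

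Genes that silence repeats were measured beside the loci. A list of 30 factors of DNA methylation and of repressive histone marks was used, and 4 were higher and 19 lower in KO cells at 24 h, where 38.5% of all tested genes were called, 17.9% higher and 20.7% lower, with a median log2 difference of -0.45, against 0.02 over all genes. Uhrf1, which recruits the maintenance methyltransferase, had 39.5 and 41.4 CPM in KO, against 756.3 and 704.2 CPM in WT at 24 h (log2 -4.17, edgeR adjusted p = 5.28e-11). Hells, a chromatin remodeller needed for DNA methylation at repeats, had 23.2 and 22.7 CPM in KO, against 355.2 and 321.1 CPM in WT. Dnmt1, the maintenance methyltransferase, had 169.7 and 179.7 CPM in KO, against 906.1 and 852.1 CPM in WT (log2 -2.33, edgeR adjusted p = 6.36e-10). At 0 h Uhrf1 was the other way round, with 27.4 and 23.9 CPM in KO, against 9.85 and 7.4 CPM in WT (log2 1.57, edgeR adjusted p = 1.8e-05). At 8 h 2 of the 30, Hells and Uhrf1, were lower in KO and none was higher, where 2.65% of all genes were called, 0.746% being lower. These levels are set beside the MaLR values only, and any tie between them was not tested.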

How the data were processed

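The authors deposited unnormalized read counts for genes and for repeat loci, and each of the 12 count columns carries the genotype, time and replicate number of 1 library. Tools named in the submitters' processing notes are STAR 2.7.1a and fastp 0.12.4, with mm10 as build. The sources used here do not give the counter, its use of strand and of reads with several matches, or the repeat annotation.

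Repeat loci were placed by bedtools 2.31.1 against GENCODE M21 (Python 3.11.15) as exonic, intronic or intergenic, and a nearest gene was taken among counted genes. Tests ran on all repeat loci, all subfamily sums or all genes with edgeR 4.0.16 in R 4.3.3: a low-count filter aware of the groups (minimum count 10, minimum total 15), offsets from gene-table totals with TMM factors, a robust quasi-likelihood fit of 6 group means that leaves 6 residual degrees of freedom, two-sided tests, and Benjamini-Hochberg adjusted p under 0.05. The edgeR fit of loci was tested on simulated counts for KO against WT at 24 h only, and the other fits and tests were not. Gene counts of 16810375 to 19126498 per library set the precision, and the 6 groups share 1 estimate of the spread. Alternatives included DESeq2 1.42.0, other scalings and filters, a replicate block and leaving out each library.

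The naming rule takes per comparison up to 5 loci per direction with the largest fold change among those called, with a mean count of at least 20 and no overlap between groups (not required for the change of the KO effect), plus the 10 most counted loci, and subfamilies likewise with a mean count of at least 50. Loci on chromosome 18 were passed over. The 6 loci called relative to their gene and the loci at printed starts were named after their values were seen. The members, the lists and the rule were chosen with earlier results of these data known. Tests relative to the host gene (gene counts plus 0.5 as offset, gene mean of at least 50) and sums without the most counted locus were added after seeing the data. No genome sequence was used here, so sequence features of all MaLR loci were not analysed.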

Additional observations from a re-analysis of the deposited data

Results flagged for a closer look

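The KO effect at 24 h differed from that at 0 h, by edgeR's test of the change itself, for 59 MaLR loci and 13 MaLR subfamilies, and the second number ran from 3 to 44 when 1 library was left out. The loci named for an upward change, on the log2 scale, were the ORR1A2 copy downstream of H2-Q4 (3.7), the MTC LTR in 4930417O13Rik (3.28), the MTC copy in Ifnar1 (3.1), the MLT1A0 copy in Rap1b (2.83) and the intronic ORR1B1-int copy in Mdm4 (2.48). The H2-Q4 value rests on 2 counts in WT cells at 24 h, and its call was lost in 6 of 20 alternatives. Loci named for a downward change were the MTB-int copy in Hmmr (-5.79), the ORR1A3 copy in Dnph1 (-5.77, with a single count in resting WT cells, where the fitted value is no bound), the MTE2a LTR in Acat2 (-3.73), the MLT1J copy in Lockd (-3.53) and the MTC LTR in Fancm (-3.45). Loci named for other reasons also passed, such as those in the Mdm4 3′ UTR (2.03), Tnfsf8 (1.79) and Il21r (1.78) upward and in Scd2 (-2.93) downward.

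Among subfamilies the KO effect moved upward for ORR1D1 with internal sequence (1.48), MTEa with internal sequence (1.09), MT-int (1.06), MTE2b with internal sequence (1.05) and MTEb (1.04), and downward for MTB-int (-1.91). Without its most counted locus, in Mdm4, ORR1D1 with internal sequence changed by 0.15 (edgeR adjusted p = 0.729), and MTEb without the copy in Tnfsf8 by 0.39 (edgeR adjusted p = 0.177). MTEa with internal sequence then changed by 0.85, MT-int by 0.58 and MTE2b with internal sequence by 1.2 (edgeR adjusted p = 0.0785, 0.246 and 0.132). MTB-int changed by 0.25 without the Hmmr copy (edgeR adjusted p = 0.694), so none of these 6 subfamilies kept its call under every alternative.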

How the results depend on the processing

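Directions held for all named loci under every alternative run, while counts of calls moved. DESeq2 called 6, 3, 92, 978 and 36 loci (KO effect at 0, 8 and 24 h, WT activation at 8 h, and the change of the KO effect). With no filter on low counts, 92 loci passed at 24 h, 892 and 1175 in WT at 8 and 24 h, and 37 for the change; a minimum count of 20 left 1162 in WT at 24 h. Fitting only the groups compared gave 15 loci at 8 h and 272 at 24 h for KO against WT, and 25 subfamilies at 24 h. Subfamilies called at 8 h were 0 under RLE size factors, library totals alone, a minimum count of 20, 4 repeat classes only, only the groups compared, and without the most counted locus. At 24 h, library totals alone gave 8 subfamilies. For the change, RLE gave 8, totals alone 3, and leaving out the most counted locus 7.

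Leaving out 1 library at a time gave 6 to 21, 1 to 9 and 76 to 227 loci for KO against WT at 0, 8 and 24 h, 926 to 1629 and 1229 to 1958 for WT at 8 and 24 h, and 37 to 104 for the change, where a lone library is assumed to vary like the other groups. Subfamilies ranged over 0 to 0, 0 to 1, 4 to 28, 42 to 82, 84 to 95 and 3 to 44. For the change, 44 subfamilies passed when the second KO library of 0 h was dropped, 22 for either KO library of 8 h, 9 for the first KO library of 24 h, 6 and 4 for the WT libraries of 8 h, and 3 for each of the other 6. The summed levels and shares kept their side of the threshold, with log2 differences of 0.035 to 0.107 for all MaLR loci. This says little of their stability, since a lone value at the smallest possible p could not pass after adjustment.

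Some subfamilies turned direction without their most counted locus: MLT1A1 (0.28) and MTB-int (0.01) for KO against WT at 24 h, MTB-int (-0.8), ORR1D1-int (-0.82) and MTE2a with internal sequence (-0.41) for WT at 24 h, ORR1D1-int (-0.12) for WT at 8 h, and MTB-int (0.25) for the change. By construction this removes 1 locus.

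Replicate numbers were not taken to pair the samples, since correlations of same-numbered deviations over 15 group pairs ran from -0.1 to 0.288, with 8 over 0.1. With the replicate block 20, 10, 198, 1581, 1913 and 77 loci and 0, 1, 25, 81, 94 and 20 subfamilies passed, in the order above. Depth was a limit, since 4260 of the 64346 counted loci passed the filter on low counts. The rest, among them the 32710 loci with 1 to 3 counts, were not tested singly.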

Other observations

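MaLR loci were split by name into LTR pieces, internal pieces and merged copies of both. LTR pieces were 359066 of the MaLR loci and held 72.8% of the counts. Internal pieces were 55446 and 18.1%, and merged copies of LTR and internal sequence 10518 and 9.07%. An LTR piece can lie beside an internal piece and need not be a lone LTR. At 24 h LTR pieces summed to 4813.2 and 5125.9 CPM in KO, against 4238.7 and 3996.6 CPM in WT libraries, whereas internal pieces summed to 1314.8 and 1356.9 CPM in KO, against 1311.2 and 1259.6 CPM in WT. In WT cells internal pieces stood at 1574.9 and 1604.4 CPM at 0 h and 1448.4 and 1475.6 CPM at 8 h. LTR pieces stood at 7831.0 and 7610.4 CPM at 0 h and 5135.7 and 5312.0 CPM at 8 h. These sums were not tested.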
